A study of Rattus norvegicus with 4 samples.

Results

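The genes described here build the DNA replication machinery other than the MCM helicase. They are 44 gene symbols selected for their known roles and looked up in the deposited expression table, where they fill 45 of the 15731 rows. Dbf4 has 2 Ensembl genes, ENSRNOG00000008513 and ENSRNOG00000050482, and each of the other symbols has a single row. RNA was sequenced from ventricular cardiomyocytes of wild type Wistar rats at post natal day 1 (1 label protocol says day 0), cultured and transfected with a synthetic miRNA mimic. The control mimic was that of the worm miRNA cel-miR-67, and the others were hsa-miR-25-3p, hsa-miR-93-5p and hsa-miR-106b-5p. Each mimic has 1 library, so a difference between mimics has no replicate check and no test was possible. The sample labels give the mimic dose as 25 nM in one protocol and 25 mM in another, and RNA was harvested 72 h after transfection. The cells came from digested ventricles after a pre-plating step, so they were mostly but not only cardiomyocytes.

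A cell copies its DNA in steps. The origin recognition complex (Orc1 to Orc6) marks the start sites, and Cdc6 and Cdt1 load the MCM helicase there, which geminin (Gmnn) opposes by binding Cdt1. The Cdc7-Dbf4 kinase, Cdc45 and the GINS complex (Gins1 to Gins4) turn the loaded helicase on. Primase and the polymerases alpha, delta and epsilon then make DNA on the sliding clamp PCNA, and cyclin E and cyclin A, with the kinase CDK2, drive entry into and passage through S phase. Many of these genes are transcribed at the start of S phase under E2F factors, and cardiomyocytes leave the cell cycle soon after birth.

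The 3 mimics other than the control carry mature strands of a miRNA cluster that lies inside Mcm7 in the rat as in other mammals. The rat mature sequences are shown, from RefSeq on GRCr8, because the seed (bases 2 to 8, in capitals) separates the mimics into a pair and a single. The mimics themselves were named for the human miRNAs. Rat miR-106b-5p lies at chr12:22157103-22157123, miR-93-5p at chr12:22156894-22156916 and miR-25-3p at chr12:22156652-22156673, all on the minus strand.
rno-miR-106b-5p: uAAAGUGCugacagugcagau
rno-miR-93-5p: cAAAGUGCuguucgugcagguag
rno-miR-25-3p: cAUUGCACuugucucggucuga
The seed AAAGUGC is shared by miR-106b and miR-93, and the seed of miR-25 is AUUGCAC.

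The start sites of the genes were searched for short motifs of cell cycle promoters. The RefSeq promoter table for GRCr8, which holds 250 bases before and 50 bases after a gene's start, had an entry for 36 of the 44 symbols. Of the forms of the E2F consensus, only TTTGGCGC and TTTCGCGC were searched, on both strands. A promoter counted as without a match can therefore hold another form. At least 1 of the searched forms occurred in 9 of the 36 promoters (25.0%), against 0.792% of all 33469 promoters in the table. TTTGGCGC occurred in 7 promoters (19.4%, against 0.493% of all) and TTTCGCGC in 3 (8.33%, against 0.326%), with Cdt1 holding both. The CCAAT box was present in 18 of the 36 promoters and 37.5% of all, and the sequence TTTGAA, part of the CHR element of later cell cycle genes, in 11.1% and 18.3%. The 9 genes were Cdt1, Gmnn, Gins1, Pola1, Pole, Pole2, Rfc3, Lig1 and Tyms. A match of letters is a description and not evidence of binding. Stretches of 30 bases around the match (in capitals) are shown for 5 of them, chosen because they span the range of responses to miR-25 among these genes. They are read 5′ to 3′ on the strand of the gene.
Gins1 (chr3:160184884-160184913, plus strand): ggttaagcctaTTTGGCGCcaaagagagga
Pole (chr12:52053646-52053675, minus strand): cacatgagagcGCGCCAAAttttcccggga
Pola1 (chrX:62342509-62342538, minus strand): gtcatcacaggGCGCCAAAtgcagtcccgc
Rfc3 (chr12:5836554-5836583, plus strand): acgtcgcagccTTTCGCGCtcgcgggaaaa
Tyms (chr9:120776102-120776131, minus strand): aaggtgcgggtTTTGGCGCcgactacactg
In Pole and Pola1 the motif lies on the opposite strand, so its complement is read here, and in Gins1 a forward and a reverse match overlap.

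The values are RPKM, reads scaled by transcript length and library size, which allows comparison between genes within a library. Comparison between libraries also depends on the library size chosen. Listed genes held 66.9% of that size in the control library but 60.4% in the miR-25 library. The effect of scaling to reads on listed genes is given further below. The reads recovered from the deposited values on listed genes numbered 15175185 in the control library, 18797234 for miR-106b, 16520057 for miR-93 and 16460108 for miR-25. The paper's methods state far fewer reads per sample, and the difference is not explained. The median replication gene had 391, 610, 535 and 312 reads in the same order, and the lowest, Cdt1, had 68, 85, 87 and 28. A change is given as the log2 ratio of RPKM over the control, with a 95% exact (Clopper-Pearson) interval that covers counting error only. A gene was counted as higher or lower where RPKM exceeded 1.0 in both libraries and the ratio passed 1.3-fold, a log2 ratio of 0.3785, and such genes with RPKM above 1.0 in both libraries are called tested. Of the 45 rows, 43 were above 1.0 in all 4 libraries. The exceptions were Cdt1, at 0.459 with miR-25, and Cdc45, at 0.966 in the control and 0.264 with miR-25.

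With miR-25, transcripts for nearly every step of DNA replication were at their lowest, whereas with miR-106b and miR-93 most were near or somewhat above the control. Against cel-miR-67, 31 of 43 tested replication genes (72.1%) were lower with miR-25 and 2 were higher, while 22.6% of all tested genes were lower and 19.3% higher. The median log2 ratio was -0.85 for the replication genes and -0.01 for all tested genes. A reduction past 2-fold was found for 14 of the 43 (32.6%), against 5.01% of all tested genes. Among the 17 rows with a mean above 10 RPKM over the 4 libraries, 10 were lower with miR-25 and the median was -0.48, against 25.2% of all 5019 genes at that level. In the same 17 rows, 2 were higher with miR-106b (11.8%, against 10.2% of those genes) and 2 with miR-93 (11.8%, against 10.6%). The larger share past 1.3-fold with miR-106b in the full set was thus not seen there. The median log2 ratio of these rows with miR-106b was still 0.25, beside 0.0001 for those genes, with 15 rows above 0 and 2 below. With miR-106b, 10 of 44 were higher and 1 was lower, where the background was 11.9% higher and 12.7% lower, and the median log2 ratio was 0.12, beside -0.0033 for all tested genes. With miR-93, 8 of 44 were higher and 2 lower, against 15.1% and 15.6% of all tested genes, with a median of 0.02, beside -0.0018. The share higher with miR-93 (18.2%) was thus close to its background. The 3 comparisons share the control library, so their values are given side by side and not as separate evidence.

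**Figure D1:**
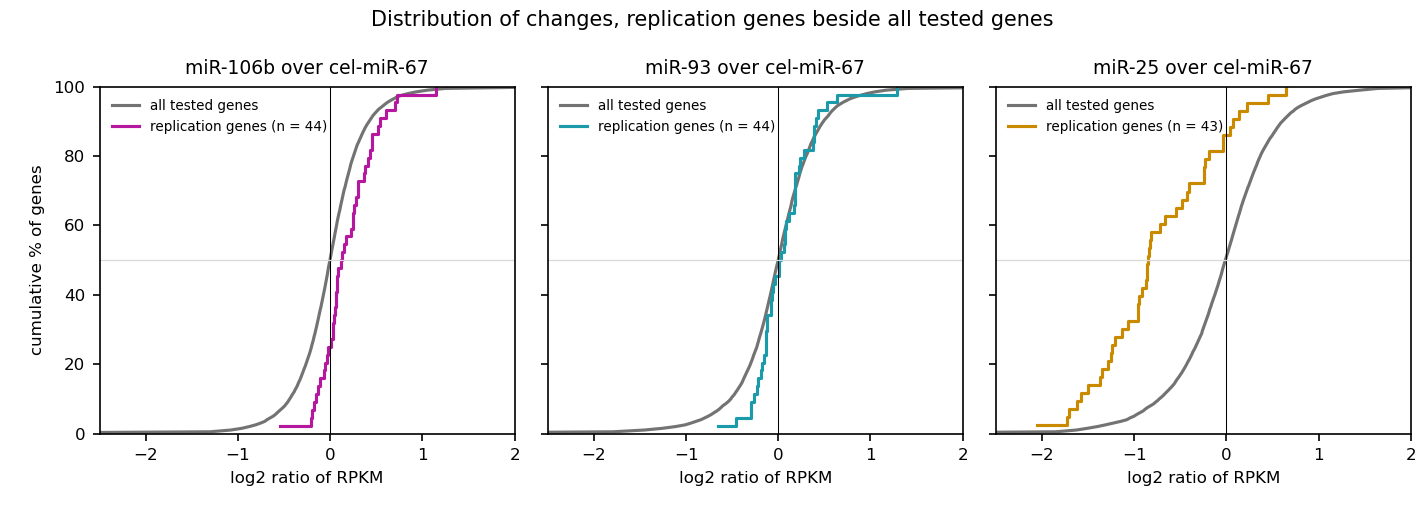
Cumulative share of genes (y axis, percent) by log2 ratio of RPKM over the control (x axis), in a panel for each mimic, with all tested genes in grey and the tested replication genes in colour. The replication genes run to the left of all genes with miR-25 (median -0.85), to the right with miR-106b (median 0.12), and along them with miR-93 (median 0.02).

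The miR-25 library was the lowest of the 4 for 36 of the 43 rows above 1.0 RPKM throughout (83.7%), a position it held for 36.5% of all such genes. The miR-106b library was the highest for 25 of them (58.1%), against 19.0% of all genes. Summed over all 45 rows, the level was 600.2 RPKM in the control, 670.9 after miR-106b, 600.2 after miR-93 and 370.7 after miR-25. The counting interval of the log2 ratio lay below 0 for 36 rows with miR-25, 6 with miR-93 and 1 with miR-106b, and above 0 for 3, 12 and 21. Intervals were not counted over all genes, so these numbers have no background beside them. The intervals also do not cover the choice of library scaling. In bulk RNA, fewer cells in S phase and less replication RNA per cell cannot be told apart. The paper also counted cardiomyocytes that took up EdU, a label of newly made DNA, in cultures of the same kind. It reports that each mimic raised their number by a factor of 3, with little difference between the mimics. How that count relates to the RNA values given here was not tested.

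**Figure D2:**
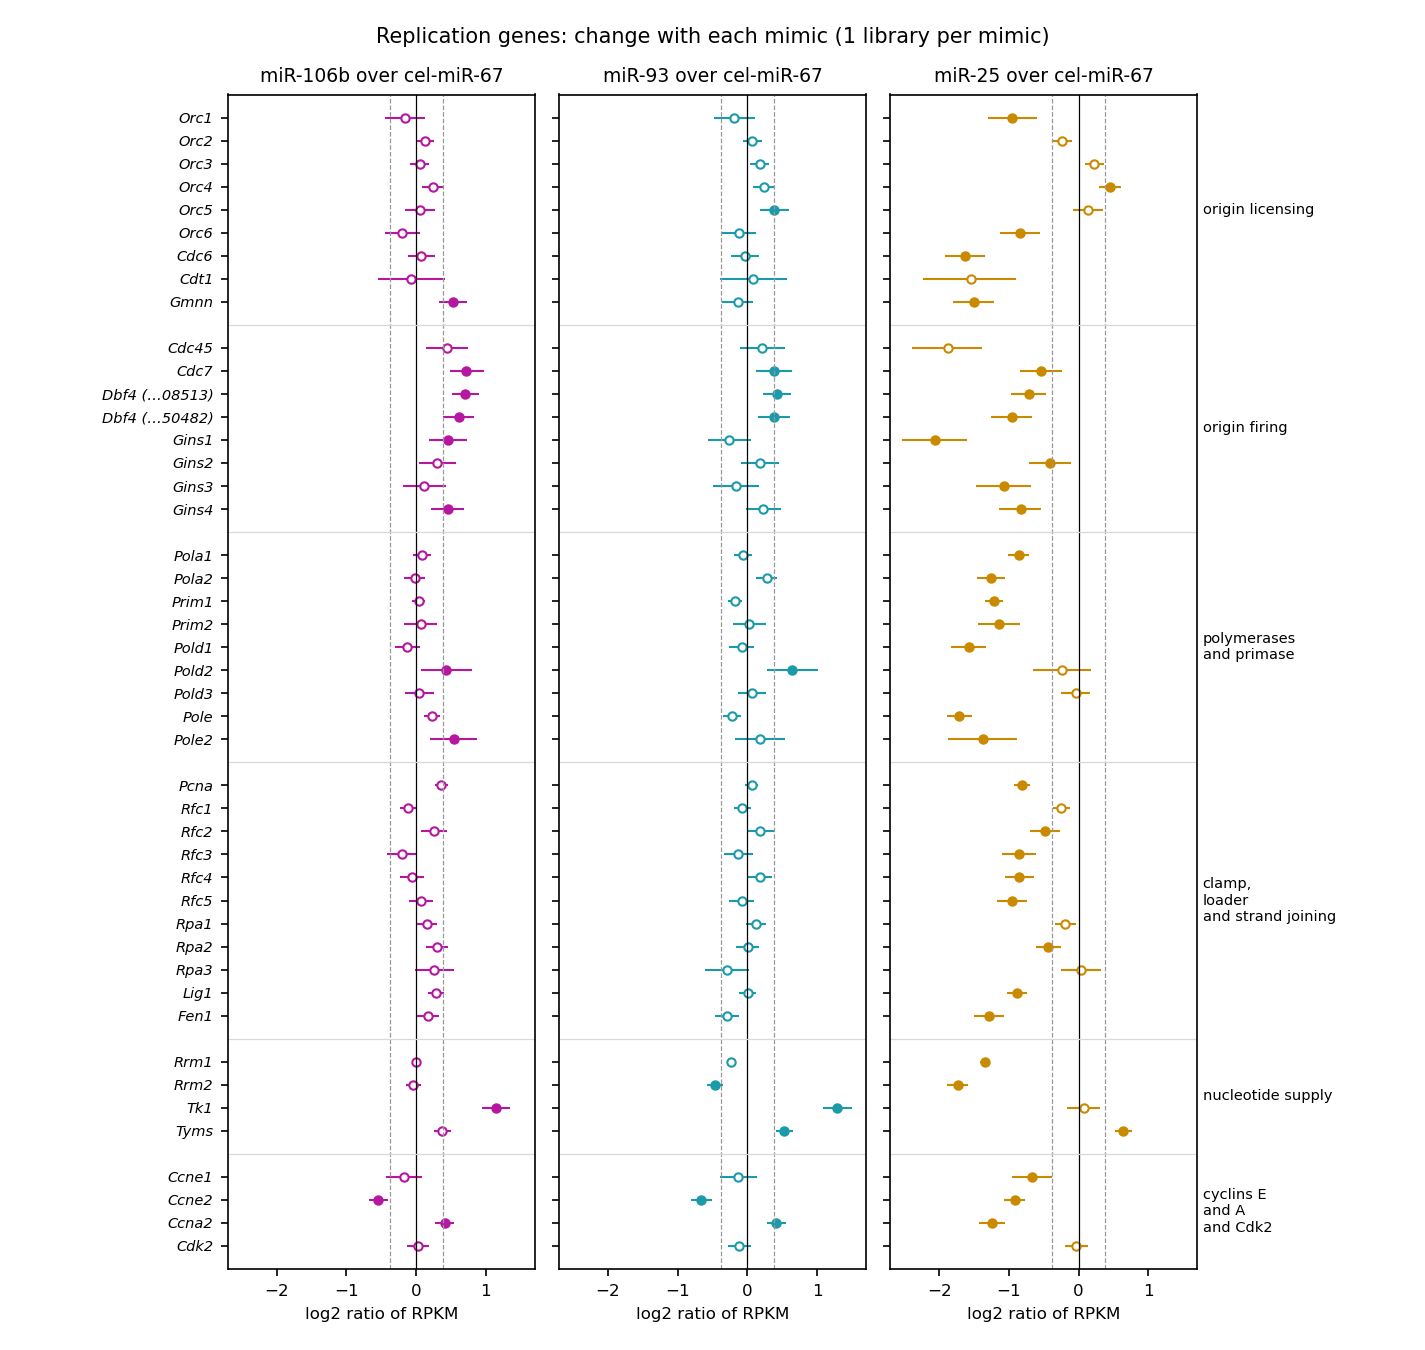
Log2 ratio of RPKM over the control (x axis) for each replication gene (y axis, by role) after the 3 mimics, with bars for 95% exact counting intervals and guide lines at 1.3-fold. With miR-25 the values reach from -2.05 for Gins1 to 0.64 for Tyms, and all but a few lie left of 0.

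Origin licensing was divided. With miR-25, 4 of its 8 tested genes were lower and 1 was higher, with a median log2 ratio of -0.54. With miR-106b and miR-93, 1 of 9 was higher in each case (medians 0.06 and 0.07) and none was lower. The shares higher were 12.5% with miR-25 and 11.1% with each of the others, against 19.3%, 11.9% and 15.1% of all tested genes. Lower calls made up 22.6% of all tested genes with miR-25, 12.7% with miR-106b and 15.6% with miR-93. The loader Cdc6, an ATPase that recruits the helicase to the origin, measured 4.07 RPKM in the control, 4.29 after miR-106b, 3.99 after miR-93 and 1.32 after miR-25. Only the miR-25 value stood apart, at a log2 ratio of -1.62 (interval -1.91 to -1.34). Its partner Cdt1 had 1.34, 1.28, 1.42 and 0.459 RPKM in the same order, and the ratio of -1.55 with miR-25 (-2.24 to -0.89) rests on 28 reads. Cdt1 was left out of the counts for miR-25 because of that low level.

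Geminin, the inhibitor of Cdt1, responded in opposite directions. Gmnn stood at 12.1 RPKM in the control, 17.4 after miR-106b, 11.001 after miR-93 and 4.27 after miR-25. The log2 ratio was 0.52 (0.33 to 0.72) after miR-106b, -0.14 (-0.36 to 0.09) after miR-93 and -1.503 (-1.80 to -1.21) after miR-25. In transcripts per length, Gmnn exceeded Cdt1 by 9.03 times in the control (interval 6.93 to 11.9), 13.6 times after miR-106b (10.8 to 17.3), 7.73 times after miR-93 (6.10 to 9.89) and 9.30 times after miR-25 (6.16 to 14.5). These intervals overlap between the control and each mimic, and the difference between the ratios was not tested.

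The 6 subunits of the origin recognition complex differed in direction with miR-25. Orc1, the subunit whose abundance is known to follow the cell cycle, measured 3.16, 2.83, 2.78 and 1.64 RPKM in the control, miR-106b, miR-93 and miR-25 libraries, and Orc6 7.53, 6.56, 6.92 and 4.20. Both were lower with miR-25, at log2 ratios of -0.95 (-1.30 to -0.60) and -0.84 (-1.13 to -0.56). Core subunits of the complex did otherwise. Orc2 stayed within 1.3-fold at 11.8, 12.9, 12.4 and 9.97 RPKM. Orc3 had 12.5, 13.0, 14.2 and 14.6 RPKM and the smallest changes of the group, with 0.22 (0.09 to 0.36) for miR-25. Orc4 was higher with miR-25, at 20.3 RPKM against 14.9 in the control (0.45, 0.30 to 0.60), and stood at 17.6 with each of the other mimics. Orc5 had 4.38, 4.56, 5.71 and 4.83 RPKM and was just past 1.3-fold with miR-93 alone, at 0.38 (0.18 to 0.59), which a pseudocount of 1 RPKM brought to 0.32. The miR-25 library was therefore the highest of the 4 for Orc3 and Orc4 while it was the lowest for Orc1, Orc2 and Orc6.

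**Figure D3:**
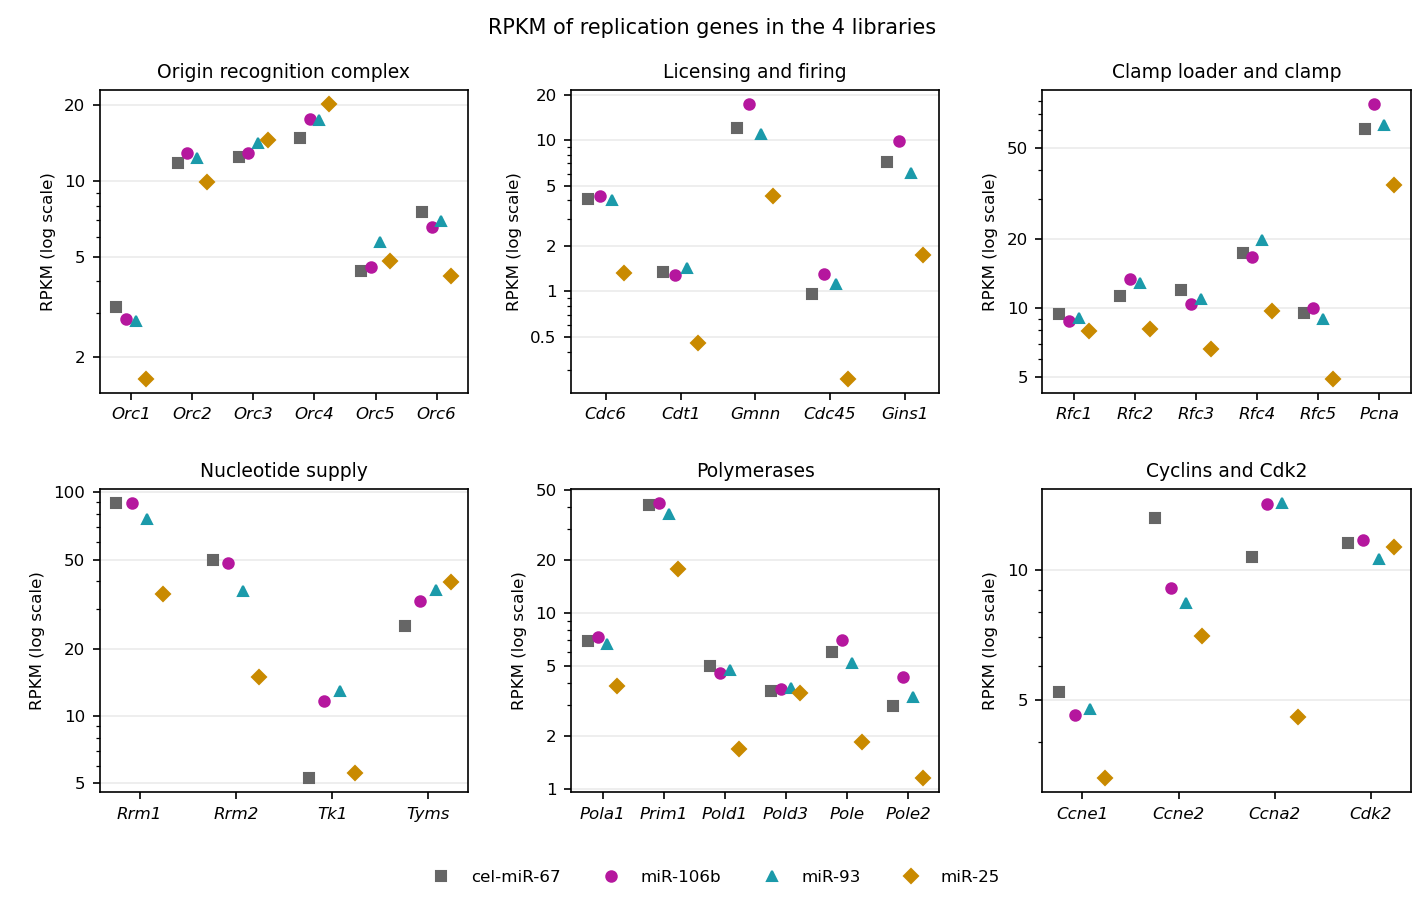
RPKM (y axis, log scale) of selected replication genes in the control, miR-106b, miR-93 and miR-25 libraries, with 1 point for each library. The miR-25 point is the lowest for Cdc6, Gmnn, Gins1, Pole, Rrm2 and Ccna2, and the highest for Orc3, Orc4 and Tyms, while Pold3 and Cdk2 lie close together in all 4.

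Origin firing showed the widest separation of the mimics. All 7 tested rows were lower with miR-25 (median -0.83), 5 of 7 were higher with miR-106b (median 0.46) and 3 of 7 with miR-93 (median 0.23). Both Dbf4 rows, which may share reads, are in these counts, and with 1 of them left out 6 of 6 were lower with miR-25, 4 of 6 higher with miR-106b and 2 of 6 higher with miR-93. Among all tested genes, 22.6% were lower with miR-25, 11.9% higher with miR-106b and 15.1% higher with miR-93. The GINS subunit Gins1 had 7.21 RPKM in the control, 9.89 after miR-106b, 6.02 after miR-93 and 1.74 after miR-25. Its log2 ratio with miR-25, -2.05 (-2.53 to -1.60), was the lowest among the tested replication genes and left 0.241 of the control level. With miR-106b the ratio was 0.46 (0.19 to 0.73), and with miR-93 -0.26 (-0.57 to 0.05).

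The other GINS subunits followed to different extents, although the proteins form a complex with each subunit present once. Gins3 stood at 2.80, 3.04, 2.51 and 1.34 RPKM and Gins4 at 9.66, 13.2, 11.3 and 5.43, with log2 ratios for miR-25 of -1.07 (-1.47 to -0.68) and -0.83 (-1.13 to -0.53). Gins2 moved least in this group, at 1.99, 2.45, 2.25 and 1.497 RPKM, and its ratio with miR-25 of -0.41 (-0.72 to -0.10) lay just past 1.3-fold. The interval of Gins1 did not overlap those of the other 3 subunits with miR-25.

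Both subunits of the kinase that fires origins were past 1.3-fold with miR-106b and, narrowly, with miR-93. Cdc7, its catalytic subunit, measured 3.13 RPKM in the control, 5.16 after miR-106b, 4.08 after miR-93 and 2.15 after miR-25. That gave log2 ratios of 0.72 (0.48 to 0.97), 0.38 (0.13 to 0.64) and -0.54 (-0.84 to -0.24). Its activator Dbf4 read 7.42, 12.1, 9.96 and 4.52 RPKM in the row ENSRNOG00000008513 and 3.65, 5.57, 4.76 and 1.89 in the row ENSRNOG00000050482. The first row gave log2 ratios of 0.70, 0.43 and -0.72 for the 3 mimics in the same order, and the second 0.61, 0.38 and -0.95. With a pseudocount of 1 RPKM, Cdc7 and the second Dbf4 row were at 0.30 and 0.31 with miR-93, within 1.3-fold, and the first Dbf4 row stayed just past it at 0.38. Near-identical copies can share or split reads, so the Dbf4 rows are uncertain and do not count as separate support. Cdc45, the helicase cofactor, ranged from 1.31 RPKM with miR-106b to 0.264 with miR-25, with 0.966 in the control and 1.12 with miR-93. Its log2 ratio with miR-25, -1.87 (-2.38 to -1.38), did not enter the counts because the control lay under 1.0 RPKM.

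Among polymerases and primase, 7 of 9 genes were lower with miR-25 (median -1.21), 2 were higher with miR-106b (median 0.06) and 1 was higher with miR-93 (median 0.03). These shares were 77.8%, 22.2% and 11.1%, against 22.6%, 11.9% and 15.1% of all tested genes. Pole, the catalytic subunit of the leading strand polymerase epsilon, had 5.99 RPKM in the control, 6.999 after miR-106b, 5.16 after miR-93 and 1.83 after miR-25, a log2 ratio of -1.71 (-1.89 to -1.53) for the last. Its partner subunit Pole2 stood at 2.96, 4.30, 3.35 and 1.15 RPKM. Pole2 was higher with miR-106b, at 0.54 (0.20 to 0.88), and lower with miR-25, at -1.37 (-1.87 to -0.89).

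Polymerase delta split by subunit. The catalytic subunit Pold1 had 4.98, 4.55, 4.71 and 1.67 RPKM and a log2 ratio of -1.57 (-1.82 to -1.33) with miR-25. Pold3, an accessory subunit, read 3.59, 3.70, 3.76 and 3.49 RPKM, the smallest changes of the group, at -0.04 (-0.25 to 0.17) with miR-25. Pold2, another accessory subunit, was higher with miR-106b and miR-93, from 3.92 RPKM to 5.28 and 6.11, with ratios of 0.43 (0.06 to 0.80) and 0.64 (0.28 to 1.01). With miR-25 Pold2 was at 3.33 RPKM, and the interval of its ratio held 0 (-0.65 to 0.18). With miR-25 the interval of Pold1 did not overlap those of Pold2 and Pold3.

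The 4 genes of polymerase alpha and primase, which lay down the first primers, were alike. Pola1 stood at 6.94, 7.33, 6.65 and 3.83 RPKM, and Pola2 at 10.1, 9.93, 12.2 and 4.23. Prim1, the primase subunit with the highest level of the group, measured 41.1, 42.1, 36.3 and 17.8 RPKM, and Prim2 4.28, 4.47, 4.36 and 1.95. All 4 were lower with miR-25, between -0.86 and -1.25 on the log2 scale, and all 4 were within 1.3-fold with the other mimics.

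The clamp, its loader, the single-strand binding proteins and the enzymes that join strands were lower with miR-25 in 8 of 11 genes (median -0.81) and past 1.3-fold in none with miR-106b (median 0.17) or miR-93 (median 0.00). The share lower with miR-25 was 72.7%, against 22.6% of all tested genes. Among all tested genes, 11.9% were higher and 12.7% lower with miR-106b, and 15.1% and 15.6% with miR-93. PCNA, the sliding clamp that holds polymerases on DNA and a common marker of S phase, had 60.5 RPKM in the control, 77.9 after miR-106b, 63.1 after miR-93 and 34.4 after miR-25. Its log2 ratios were 0.36 (0.27 to 0.45), just inside 1.3-fold, then 0.06 (-0.04 to 0.16) and -0.81 (-0.93 to -0.70). Fen1, the nuclease that trims the flaps of lagging strand fragments, measured 11.1, 12.6, 9.08 and 4.58 RPKM and gave the lowest ratio of the group with miR-25, -1.28 (-1.497 to -1.07). Lig1, the ligase that seals those fragments, had 14.7, 17.9, 14.7 and 8.004 RPKM, with -0.88 (-1.02 to -0.73) for miR-25.

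The clamp loader genes split along their subunits. Rfc5 measured 9.51, 9.97, 8.99 and 4.91 RPKM, Rfc3 12.0, 10.4, 10.97 and 6.61, and Rfc4 17.4, 16.7, 19.7 and 9.68. Their log2 ratios with miR-25 were -0.95 (-1.16 to -0.75), -0.86 (-1.10 to -0.62) and -0.85 (-1.06 to -0.64). Rfc2 was nearer the control, at 11.3, 13.4, 12.8 and 8.10 RPKM (-0.48, interval -0.69 to -0.27). Rfc1, the large subunit, stayed within 1.3-fold at 9.46, 8.74, 9.01 and 7.97 RPKM (-0.25, -0.37 to -0.13). The interval of Rfc1 thus lay above those of Rfc3, Rfc4 and Rfc5.

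Replication protein A, which coats single-stranded DNA in replication and also in repair, varied less. Rpa1 had 27.2, 30.3, 29.6 and 23.9 RPKM and the smallest changes of its group. Rpa2 stood at 11.6, 14.3, 11.7 and 8.63 RPKM and was lower with miR-25, at -0.43 (-0.61 to -0.26). Rpa3 read 12.7, 15.1, 10.3 and 13.0 RPKM, and its interval held 0 with each of the 3 mimics.

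**Figure D4:**
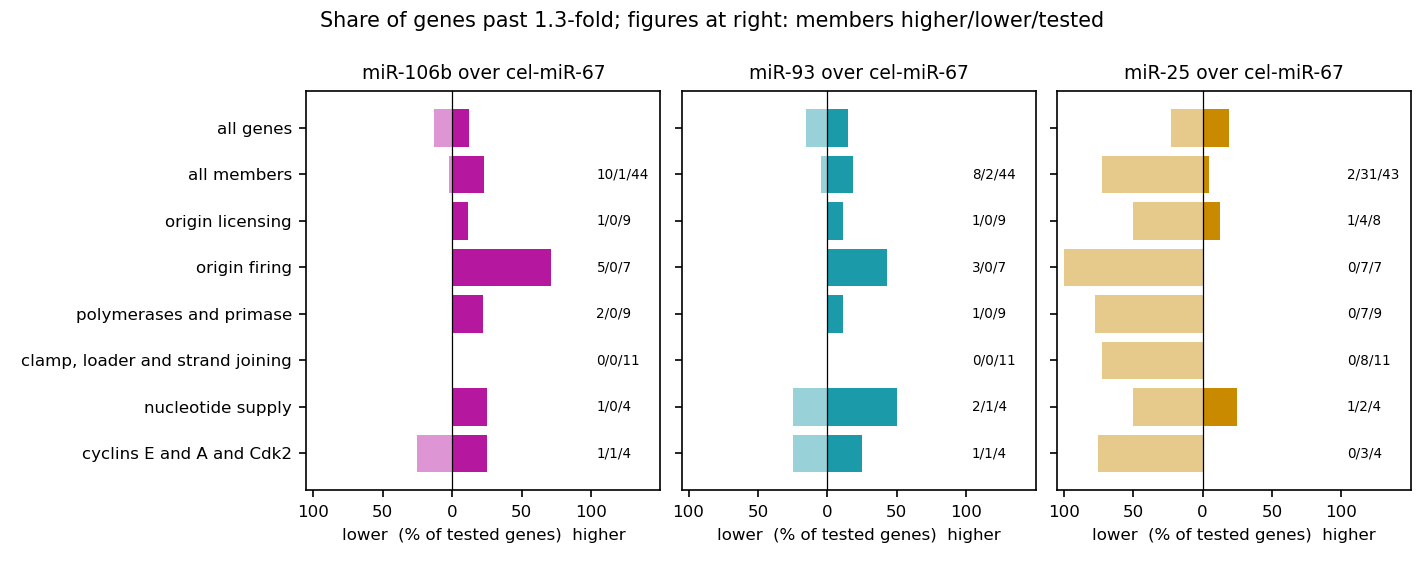
Share of tested genes past 1.3-fold over the control (x axis, percent, lower to the left and higher to the right) for all genes, all replication genes and the 6 roles (y axis), in a panel for each mimic. Origin firing, with both Dbf4 rows counted, has 5 of 7 higher with miR-106b and 7 of 7 lower with miR-25, and the clamp group has 0 of 11 past 1.3-fold with miR-106b and miR-93.

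Nucleotide supply held the changes most at odds with the rest. Thymidine kinase (Tk1), which salvages thymidine, had 5.27 RPKM in the control, 11.6 after miR-106b, 12.9 after miR-93 and 5.54 after miR-25. It was 2.21-fold higher with miR-106b (log2 1.14, 0.94 to 1.35) and 2.45-fold higher with miR-93 (1.29, 1.09 to 1.497), the highest ratios among the replication genes, and at 0.07 (-0.16 to 0.31) with miR-25. Thymidylate synthase (Tyms), which makes thymidylate anew, stood at 25.3, 32.8, 36.5 and 39.5 RPKM. All 3 mimics were above the control, at 0.37 (0.25 to 0.50), 0.53 (0.41 to 0.65) and 0.64 (0.53 to 0.76), and miR-25 was the highest of the 4 libraries. The ratio with miR-106b lay just inside 1.3-fold.

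Ribonucleotide reductase, which makes deoxyribonucleotides from a large (Rrm1) and a small (Rrm2) subunit, was lower with miR-25. Rrm1 had the highest level of the replication genes, at 89.2, 89.4, 75.9 and 35.1 RPKM, with -1.35 (-1.41 to -1.28) for miR-25. Rrm2 measured 49.6, 48.3, 36.1 and 14.95 RPKM, with -0.04 (-0.15 to 0.06) for miR-106b, -0.46 (-0.57 to -0.34) for miR-93 and -1.73 (-1.88 to -1.58) for miR-25. The level of Rrm2 relative to Rrm1 was 0.557 (0.524 to 0.591) in the control, 0.540 (0.512 to 0.569) after miR-106b, 0.476 (0.447 to 0.507) after miR-93 and 0.426 (0.386 to 0.470) after miR-25. The small subunit was thus reduced more than the large one with miR-93 and miR-25, and with miR-106b the intervals overlapped the control.

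The cyclins of S phase went separate ways. Cyclin E2 (Ccne2) was the single replication gene past 1.3-fold in the same direction with all 3 mimics, at 13.2 RPKM in the control, 9.08 after miR-106b, 8.39 after miR-93 and 7.02 after miR-25. Its log2 ratios were -0.54 (-0.68 to -0.41), -0.66 (-0.80 to -0.51) and -0.92 (-1.07 to -0.76). Cyclin E1 (Ccne1) stood at 5.21, 4.61, 4.76 and 3.29 RPKM and was lower with miR-25 only, at -0.67 (-0.96 to -0.38), with -0.18 (-0.44 to 0.08) and -0.13 (-0.39 to 0.13) for miR-106b and miR-93.

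Cyclin A2 (Ccna2) had 10.8 RPKM in the control, 14.3 after miR-106b, 14.3 after miR-93 and 4.55 after miR-25. It was higher with miR-106b, at 0.41 (0.28 to 0.54), and with miR-93, at 0.41 (0.28 to 0.55), and lower with miR-25, at -1.24 (-1.43 to -1.06). The level of cyclin A2 relative to cyclin E2 was 0.813 (0.736 to 0.897) in the control, 1.57 (1.44 to 1.72) after miR-106b, 1.71 (1.55 to 1.88) after miR-93 and 0.648 (0.568 to 0.740) after miR-25. Cyclin A2 therefore exceeded cyclin E2 with the mimics that share a seed and fell short of it in the other libraries. Their kinase partner Cdk2 was the flattest of the group, at 11.6, 11.8, 10.7 and 11.3 RPKM, and its interval held 0 with every mimic.

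Across the groups, 21 of 43 rows were lower with miR-25 while within 1.3-fold for the other mimics, and 7 were within 1.3-fold for all 3: Orc2, Orc3, Pold3, Rfc1, Rpa1, Rpa3 and Cdk2. Opposite calls, lower with miR-25 and higher with miR-106b, were made for 8 rows, namely Gmnn, Cdc7, both Dbf4 rows, Gins1, Gins4, Pole2 and Ccna2. Of these, Cdc7, both Dbf4 rows and Ccna2 were also higher with miR-93. The shares of all genes with such combined calls were not counted, so these numbers only describe the list. Values near 1.3-fold were Pcna (0.36) and Tyms (0.37) inside and Ccna2 (0.41) and Pold2 (0.43) outside with miR-106b, Cdc7, Orc5 and a Dbf4 row (all 0.38), Ccna2 (0.41) and the other Dbf4 row (0.43) outside with miR-93, and Gins2 (-0.41) just outside with miR-25. Scaling the libraries to the reads on listed genes adds 0.083, 0.146 and 0.148 to all log2 ratios of miR-106b, miR-93 and then miR-25. On that scale Pcna, Tyms, Gins2 and Rpa2 passed 1.3-fold with miR-106b, Orc4 and Pola2 passed it with miR-93, Rrm2 no longer did with miR-93, and Gins2, Rfc2 and Rpa2 no longer did with miR-25.

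The promoter match can be set beside these values. Of the 8 tested genes with a match, 7 were lower and 1, Tyms, was higher with miR-25, with a median log2 ratio of -1.12. Among 27 tested rows whose promoter entry had no match, 18 were lower and none higher (median -0.67). The 8 rows without a promoter entry, whose match is unknown, had 6 lower and 1 higher (median -0.93). With miR-106b, 3 of 9 genes with a match and 5 of 27 without were higher, and with miR-93 1 of 9 and 6 of 27. Of all tested genes, 22.6% were lower with miR-25, and 11.9% and 15.1% were higher with miR-106b and miR-93. Whether a match bears on the response was not tested.

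The mimics can also be compared without the control. Although they share a seed, miR-93 and miR-106b differed past 1.3-fold for 6 of 45 rows, all lower with miR-93, where 8.21% of all tested genes were lower and 7.3% higher. These were Gins1 (-0.72, interval -0.99 to -0.45), Gmnn (-0.66, -0.85 to -0.47), Rpa3 (-0.55, -0.83 to -0.27), Fen1 (-0.47, -0.63 to -0.31), Pole (-0.44, -0.56 to -0.32) and Rrm2 (-0.42, -0.53 to -0.31). The highest ratio was 0.32 (0.14 to 0.51) for Orc5. The median was -0.11, with 39 rows within 1.3-fold, and the counting interval lay below 0 for 17 rows, above 0 for 5 and held 0 for 23. Here too, intervals were not counted over all genes.

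Between miR-25 and miR-106b, 32 of 43 rows were lower with miR-25 and none was higher, against 23.0% and 22.1% of all tested genes, and the median was -1.02. Gins1 had the lowest ratio of the tested rows, at -2.51 (-2.97 to -2.08), then Gmnn at -2.03 (-2.30 to -1.76), Pole at -1.93 (-2.10 to -1.76) and Pole2 at -1.91 (-2.37 to -1.47). Cyclin A2 differed by -1.65 (-1.82 to -1.48) and Tk1 by -1.07 (-1.26 to -0.88). At the other end stood Tyms, at 0.27 (0.17 to 0.37).

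Other genes of the pathway were counted in the same way. Of 27 further replication factors, 25 were listed, and with miR-25 14 of 22 tested were lower and none higher (median -0.79). That was 63.6% lower, against 22.6% of all tested genes. With miR-106b, 5 of 24 were higher and none lower (median 0.20), and with miR-93, 2 were higher and 2 lower (median 0.11). The share higher with miR-106b was 20.8%, against 11.9% of all tested genes. The 8.33% each way with miR-93 lay under the 15.1% and 15.6% of all tested genes. Topoisomerase Top2a, which untangles copied DNA, had 29.8 RPKM in the control, 54.5 after miR-106b, 39.6 after miR-93 and 10.0 after miR-25, the lowest ratio of that list with miR-25 at -1.57 (-1.65 to -1.49). The 6 MCM helicase genes were all lower with miR-25 (median -1.24), while each of the other mimics had 1 higher and 1 lower. Such a single call is 16.7%, beside 11.9% and 12.7% of all tested genes with miR-106b and 15.1% and 15.6% with miR-93.

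Nucleotide supply beyond the genes above was mixed. Of 11 tested genes, 2 were higher and 4 lower with miR-25 (median -0.22), 2 higher and none lower with miR-106b (median 0.07), and 2 higher and 2 lower with miR-93 (median -0.04). The shares with miR-25 were 18.2% higher and 36.4% lower, against 19.3% and 22.6% of all tested genes. For miR-106b 18.2% were higher, against 11.9%, and for miR-93 18.2% each way, against 15.1% and 15.6%. Rrm2b, the reductase subunit that serves cells outside S phase and is a p53 target, stood at 5.74, 6.03, 5.47 and 12.2 RPKM. It was higher with miR-25, at 1.09 (0.82 to 1.37), where Rrm2 was lower.

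Among the regulators of licensing and of the S phase cyclins, 15 of 17 were tested. With miR-25, 2 were higher and 5 lower (median -0.26), or 13.3% and 33.3%, against 19.3% and 22.6% of all tested genes. For miR-106b the numbers were 3 and 2 (median 0.08), or 20.0% and 13.3%, against 11.9% and 12.7%. For miR-93 they were 3 and 3 (median 0.19), or 20.0% each, against 15.1% and 15.6%. The CDK inhibitor Cdkn1a was at 9.61, 9.90, 7.02 and 31.5 RPKM, and 1.71 (1.58 to 1.84) higher on the log2 scale with miR-25. E2f1, an activating E2F factor, was below the control in every mimic library, at 3.63, 2.02, 2.45 and 1.38 RPKM. Rb1, the retinoblastoma protein that holds E2F factors in check, was at 3.67, 3.87, 4.27 and 7.03 RPKM. Inhibitors differed in which mimic they followed. The CDK inhibitor Cdkn1c had log2 ratios of 1.77 with miR-106b and 2.72 with miR-93, the highest of the list, and 0.06 with miR-25, and Cdkn1b was within 1.3-fold with all 3. Rbl1, a relative of Rb1, was lower with all 3, at -0.59, -0.47 and -0.51.

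Marker transcripts of the cell types that such cultures can hold also differed between the libraries. All 9 listed cardiomyocyte markers were above 1.0 RPKM in every library. Their summed level was 13100 RPKM in the control, 10800 after miR-106b, 8374 after miR-93 and 8611 after miR-25. Actc1 made up much of that sum, at 7073, 5034, 2733 and 4953 RPKM in the same order. Lower calls with miR-25 numbered 8 of 9 (88.9%, against 22.6% of all tested genes), and Nkx2-5 was higher (log2 ratio 0.88). For miR-106b and miR-93, 3 of 9 were lower (33.3% each, against 12.7% and 15.6%), and 1 and 2 were higher. The 10 fibroblast markers summed to 851.6, 664.4, 767.1 and 350.0 RPKM. Col3a1 and Col1a2 made up much of that sum, at 326.5 and 284.2 RPKM in the control and 129.7 and 77.6 with miR-25. With miR-25, 7 of 10 were lower (70.0%, against 22.6% of all tested genes) and 1, Lum, was higher (log2 ratio 0.87). With miR-106b and with miR-93, 5 of 10 were lower and none was higher. Lower calls made up 12.7% and 15.6% of all tested genes with these mimics. The 5 smooth muscle markers summed to 750.8, 692.4, 589.9 and 2056 RPKM. With miR-25, 4 of them were higher (80.0%, against 19.3% of all tested genes) and 1 was lower. The 6 macrophage markers summed to 12.2, 12.2, 14.0 and 6.34 RPKM, and the 5 endothelial markers to 5.07, 4.24, 5.13 and 3.96. No marker of these lists was at 0 in any library. The part of other cell types in the changes of replication genes was not tested.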

How the data were processed

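Total RNA of 4 cultures was sequenced as single 50-base reads on an Illumina HiSeq 2000 after TruSeq library preparation. The authors checked reads with FASTQC, trimmed them with Cutadapt, aligned them to Rnor_6.0 with STAR (2.7 in the submitters' processing notes), rounded gene counts and deposited RPKM values computed with edgeR. The program that counted reads is not given in the sources used here. The whole-series table and the 4 sample files held identical values.

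Whole reads were recovered from the RPKM values for all 15731 genes, as the whole numbers that give both the ratios between libraries and whole gene lengths (largest deviation 0.0044 reads). A common factor was restored for 654 genes. The step was also run on simulated data built from the recovered lengths and library sizes. That run therefore cannot check whether those sizes are right for these libraries. Listed genes held 66.9%, 63.2%, 60.5% and 60.4% of the library size behind RPKM in the control, miR-106b, miR-93 and miR-25 libraries. Ratios used no pseudocount, and the cutoffs (1.0 RPKM in both libraries, 1.3-fold) are those of the study's results text. The methods give 2.0 RPKM. With each mimic and in both directions, more genes passed these cutoffs here than the paper reports, and the reason is not known. The 95% intervals cover counting error only.

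The replication genes, roles, further lists and markers were chosen with earlier results of these data known. The genes to be named were, in each role, the 3 with the largest change and the 1 with the smallest, those past 1.3-fold with all 3 mimics or in opposite directions, all cyclin genes and Pcna, and the rest were added so that every gene is accounted for. Genes of the other lists were named after their values were seen. Cdca5, Dna2, Ttn and Pecam1 were not analysed here. Promoter entries were not at hand for Cdc6, Rrm2, Ccna2, Orc4, Rpa3, Orc1, Gins4 and Ccne2. Alternatives were cutoffs of 2.0 and 10 RPKM, no filter, 1.5-fold, a pseudocount of 1 RPKM and centring on the median tested gene. Scaling to reads on listed genes, a single Dbf4 row and a mean of 10 RPKM over the 4 libraries were added after seeing the data. Scripts ran under Python 3.11.15 with pandas 2.3.3 for tables, numpy 2.4.6, scipy 1.17.1 for intervals, and matplotlib 3.10.9.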

Additional observations from a re-analysis of the deposited data

How the results depend on the processing

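No paired analysis was possible because each mimic has 1 library. The number of replication genes lower with miR-25 (31) stayed within 1.5 times of that value under 2.0 RPKM, no filter, 1.5-fold, a pseudocount of 1 RPKM, centring, scaling to listed reads and a single Dbf4 row. Above 10 RPKM in both libraries it was 4 of 10, with a median log2 ratio of -0.11, a filter that removes genes for being low with miR-25. Above a mean of 10 RPKM it was 10 of 17, with a median of -0.48. At 1.5-fold, 1 gene was higher with miR-25. The number higher with miR-106b (10) was 2 above 10 RPKM by either filter and 4 at 1.5-fold, and the number lower (1) was 0 under each of the 3. The number higher with miR-93 (8) was 2 above 10 RPKM by either filter, 2 at 1.5-fold and 5 with a pseudocount, and the number lower (2) was 1 above 10 RPKM by either filter, at 1.5-fold and with scaling to listed reads. Fewer genes or smaller changes qualify by construction under these filters and cutoffs. Of 135 log2 ratios of single genes, 24 moved beyond their interval with that scaling, 7 with a pseudocount and none with centring, and none changed sign as a call. With 1 library each, depth limits Cdt1 and Cdc45 with miR-25 most, and variation between cultures is not measured.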
